A study of Mus musculus with 92 samples.

Results

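Ifnb1 encodes interferon beta, the type I interferon that many cell types can secrete. Ifnar1 and Ifnar2 encode the paired chains of the receptor for all type I interferons, and Ifngr1 and Ifngr2 encode the ligand-binding and signaling chains of the receptor for interferon gamma, the type II interferon. These 5 genes were taken by name from the 29956 named genes of the expression table, and each of the 5 has a row there. Cells sense foreign or unedited double-stranded RNA, among other signals, and activate interferon regulatory factors and NF-kB, which switch on Ifnb1. Secreted interferon beta binds its receptor on the same or neighboring cells, the receptor-bound kinases Jak1 and Tyk2 phosphorylate Stat2 among other proteins, and Stat2 acts with Irf9 to switch on interferon-stimulated genes. Adar encodes ADAR1, an RNA-editing enzyme that marks the cell's own double-stranded RNA, and its loss can trigger this pathway.

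The study grew mouse macrophages from bone marrow (BM) progenitors or from ER-Hoxb8 cells, a conditionally immortalized myeloid progenitor line, and placed such cells in the brains of mice that lack microglia. It also removed Adar from ER-Hoxb8 cells with CRISPR guides and treated the resulting macrophages with baricitinib, an inhibitor of Jak1 and Jak2. RNA was sequenced in bulk in 92 libraries that form 25 groups. In bulk RNA, fewer cells of a type and less RNA per cell cannot be told apart.

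The cells came from FVB mice. The labels give 1 copy of Cas9 to ER-Hoxb8 progenitors, 4div cells and macrophages and to all lines with guides, and give the other groups as wild type, so ER-Hoxb8 MLCs and ER-Hoxb8 macrophages also differ in Cas9. BM progenitors were depleted of mature lineages, BM monocytes were enriched with magnetic beads, and bone marrow derived (BMD) macrophages were grown with M-CSF for 7 days. ER-Hoxb8 progenitors were held immature by beta-estradiol with GM-CSF. After its removal they were cultured with M-CSF for 4 days (4div cells) or 7 days (macrophages). Each of these 6 groups has 3 libraries. Microglia-like cells (MLCs) are BMD or ER-Hoxb8 cells that were injected into the brains of Csf1r-/- pups, which have no microglia of their own, and were sorted back out about 2 weeks later, with 6 libraries each. Of the 6 ER-Hoxb8 MLC libraries, 3 have names that begin with GFPHox and 3 with WTHox. Microglia came from wild-type mice and have 9 libraries, of which 2 carry the prefix YSWT. The Adar1 KO cells are ER-Hoxb8 lines with a guide against Adar (sgRNA 1 or sgRNA 2), kept as bulk lines and not as clones, and NTC cells carry a non-targeting control guide. Progenitors and macrophages of the sgRNA 1 and NTC lines have 3 libraries each, sgRNA 2 progenitors have 3 and sgRNA 2 macrophages have 5. The sgRNA 2 libraries share their scaling with no NTC library. In a separate run, NTC macrophages and Adar1 KO macrophages with sgRNA 1 took 0, 0.0006, 0.016, 0.4 or 10 µM baricitinib with each change of medium over 7 days, with 3 or 4 libraries a group. These doses are those of the sample titles, and the study's protocol gives other values for those of the titles at 0.0006 and 0.016 µM, so the order of the doses is firmer than their spacing.

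Values are log2 CPM (counts of a gene scaled to a common total per library) as the authors deposited them, scaled between libraries with the TMM method and raised by a small prior count before the logarithm. A gene with no reads therefore takes the lowest value of its column, which is the same in libraries that were scaled together. The columns fall into 6 sets by that lowest value. The 4 groups of BM progenitors, BM monocytes, ER-Hoxb8 progenitors and 4div cells share -4.34, and their libraries hold an estimated 34.4 to 48.9 M reads (M, mega). BMD and ER-Hoxb8 macrophages, both kinds of MLC and microglia share -3.62, with 8.62 to 43.3 M reads. The sgRNA 1 and NTC progenitors and macrophages share -3.43, with 17.2 to 41.9 M reads, except for NTC macrophages replicate 2, which has a lowest value of its own, -3.09, with 19.6 M reads. The sgRNA 2 libraries share -3.56, with 18.5 to 27.1 M reads. The baricitinib libraries share -2.78 and are the shallowest, with 6.06 to 34.2 M reads. Levels are compared within a set, and NTC macrophages replicate 2 stands beside its group without entering the tests.

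The labels were checked against marker genes, as CPM summed over each list in a library. Macrophage markers (7 genes, Csf1r and Cd68 among them) summed to between 3842 and 11420 CPM in the macrophage groups grown in vitro. Progenitor markers (4 genes, led by Mpo) reached at least 5326 CPM in BM progenitors, at least 11600 CPM in the sgRNA 1 and NTC progenitors and at least 2131 CPM in sgRNA 2 progenitors. BM monocytes held at least 8902 CPM of monocyte markers and kept a median of 4779 CPM of progenitor markers.

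Several libraries stand apart from their group or go against its label. ER-Hoxb8 progenitors held 54.1, 26.1 and 2363 CPM of progenitor markers in replicates 1 to 3 and 2156, 5598 and 461 CPM of macrophage markers, so that replicates 1 and 2 look more like macrophages than like progenitors. Adar1 KO macrophages at 0.4 µM replicate 2 had a median of 9.08 log2 CPM over 14 targets of type I interferon, against -0.05 and 1.71 in replicates 1 and 3. Microglia replicate 8 had the lowest Ifnar1, Ifnar2, Ifngr1 and Adar of the 9 microglia libraries, and its neuron and oligodendrocyte markers reached 21.1 and 628 CPM. ER-Hoxb8 MLCs replicates 3 and 6 held 188 and 173 CPM of T and B lymphocyte markers, where the other 4 held 1.99 to 28.5 CPM. Neutrophil markers reached 23037 CPM in ER-Hoxb8 MLCs replicate 5 and 15708 CPM in BMD MLCs at most. The part of the other cell types in any result was not tested.

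Ifnb1 lies on chromosome 4 as a gene without introns. Ifnar2, Il10rb, Ifnar1 and Ifngr2 follow each other on the same strand of chromosome 16, with Il10rb encoding a chain shared by receptors for interleukin 10 and interferon lambda, and Ifngr1 lies apart on chromosome 10. A read-through gene, Gm21970, overlaps Ifnar2 and Il10rb, and its highest value in any library was 1.13 log2 CPM. All 5 members have an entry in the RefSeq table of promoters, which spans 250 bases before to 50 after each gene's start. The stretch of the Ifnb1 promoter below is the best-known switch of this pathway and is shown because Ifnb1 was read almost wholly in Adar1 KO macrophages. It holds 150 bases, reads 5′ to 3′ along the gene's minus strand (GRCm38.p6, chr4:88522895-88523044, RefSeq) and ends 101 bases before the start, with matches to the motifs in capitals.

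Ifnb1: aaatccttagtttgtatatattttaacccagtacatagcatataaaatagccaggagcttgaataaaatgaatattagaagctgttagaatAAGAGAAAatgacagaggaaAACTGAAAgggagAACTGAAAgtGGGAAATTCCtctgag

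Motifs were searched on both strands. AANNGAAA, the core that interferon regulatory factors recognize, matched 3 times in this window, at 159, 139 and 126 bases before the start. The run of 10 capitals at the end, at 116 bases before the start, matches a form of the NF-kB motif. Of 32851 promoters of the same length, 23.9% hold AANNGAAA, 5.34% hold it at least 2 times and 1.47% hold this NF-kB form. A longer form with 2 spaced copies of its GAAA, which overlaps it and occurs in 3.44% of promoters, was not in the Ifnb1 window. The Ifngr2 window held the NF-kB form at 75 bases before its start. A further motif searched, TTCNNNGAA, occurs in 8.3% of promoters. It matched in the Ifnar1 window at 5 and in the Ifnar2 window at 214 bases before the start. These matches describe the letters and say nothing of binding in these cells.

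Ifnb1 stood above the lowest value of its set in 26 of 92 libraries, and 19 of these 26 are Adar1 KO macrophages. In cells without guides grown or isolated outside the brain it stood at the lowest value in all 18 libraries, so that no read was assigned to it in BM progenitors, BM monocytes, BMD macrophages, ER-Hoxb8 progenitors, 4div cells or ER-Hoxb8 macrophages. In cells from brain it was above the lowest value in 3 of 21 libraries. Those were ER-Hoxb8 MLCs replicate 1 at -0.11 log2 CPM (8 reads), ER-Hoxb8 MLCs replicate 3 at 0.36 (20 reads) and microglia replicate 2 at -2.83 (1 read), against a lowest value of -3.62. The groups of that set thus overlap, and Ifnb1 did not enter their test, which asks for more than 1 CPM in at least 6 libraries. Counting error sets how firmly an absence can be stated, because 3 reads amount to 0.183 to 0.282 CPM in the untreated NTC macrophages of the baricitinib series.

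**Figure D1:**
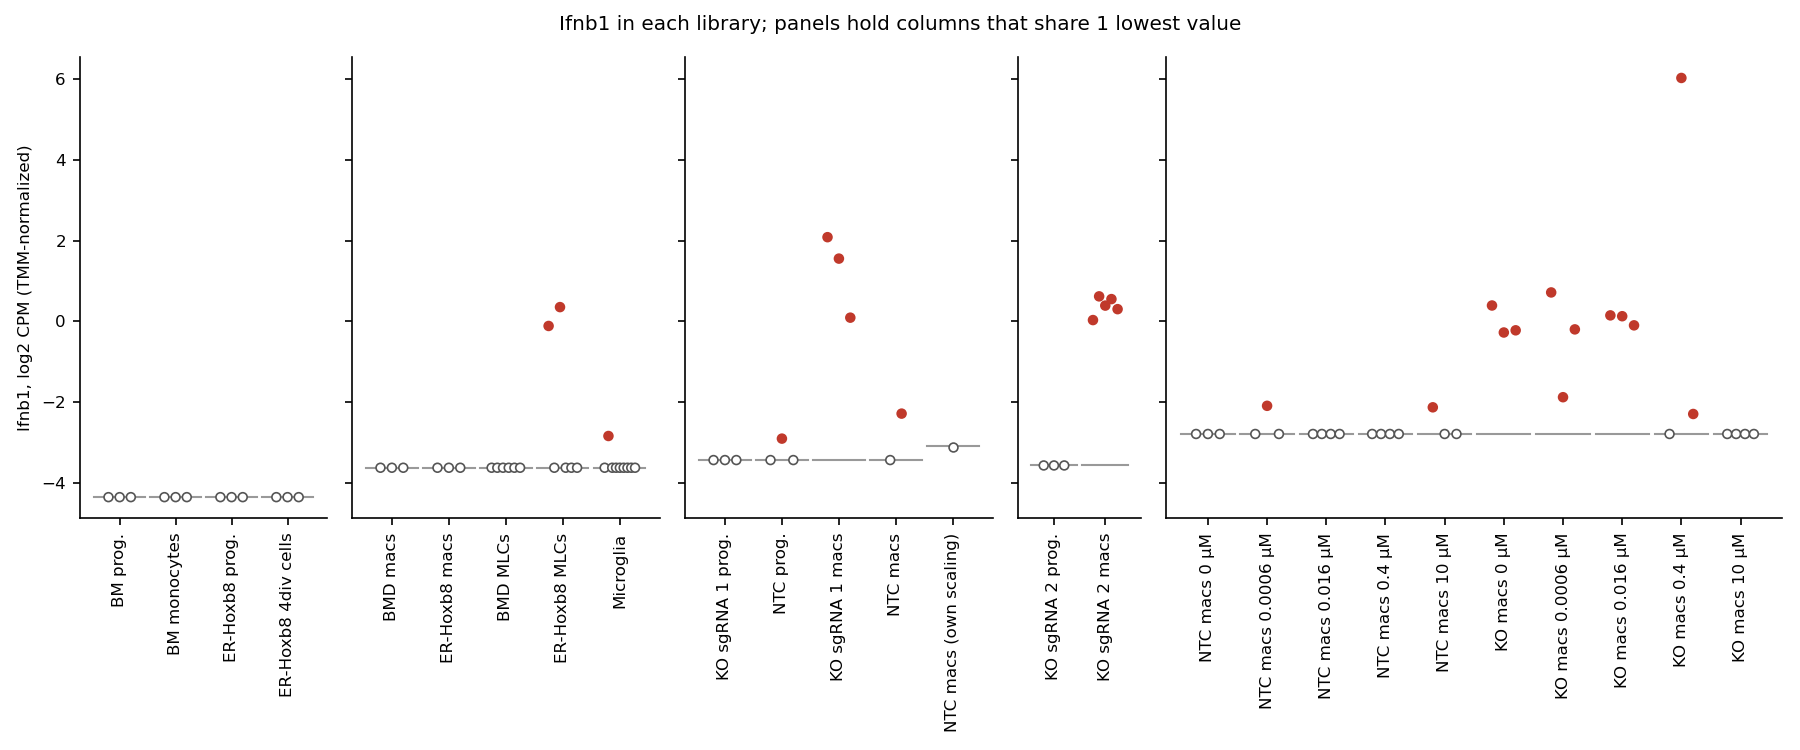
Ifnb1 in log2 CPM in each of the 92 libraries by group, in panels of columns that share a lowest value (gray lines; the middle panel adds NTC macrophages replicate 2 at its own). Filled red points are the 26 libraries above the lowest value and open points are libraries with no read, and Adar1 KO macrophages hold most filled points, apart from the 10 µM group.

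Among the lines with guides, progenitors read Ifnb1 in 1 of 9 libraries, NTC progenitors replicate 2 at -2.90 log2 CPM (1 read). The sgRNA 1 progenitors stood at -3.43 in each library, and sgRNA 1 macrophages stood at 2.08, 1.55 and 0.09. NTC macrophages stood at -3.43 and -2.28 in replicates 1 and 3, and replicate 2 was at its own lowest value of -3.09. The sgRNA 1 macrophages therefore lay above every NTC and progenitor library of their set, with a mean of 2.66 CPM. With 250 reads against 3, the ratio to the 2 NTC macrophage libraries of the same set was 45.1, with a 95% counting interval of 15.3 to 220.4, a version chosen after seeing the data. With replicate 2 pooled in despite its own scaling it was 64.1 (21.7 to 313.1). Against sgRNA 1 progenitors, which had no read, the level was at least 22.4-fold higher with a floor of 3 counts per library. Ifnb1 did not enter the test across genes in this set because it passed 1 CPM in fewer than 3 libraries.

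The sgRNA 2 macrophages repeated the detection in 5 of 5 libraries, at 0.03, 0.62, 0.39, 0.55 and 0.30 log2 CPM, and the 3 sgRNA 2 progenitors stood at -3.56. The groups do not overlap, and the macrophage mean of 1.23 CPM was at least 11.03-fold higher than in progenitors. With limma, a linear model fitted to all genes, the difference was 3.94 log2 units with a standard error (SE) of 0.27 and an adjusted p of 2.5e-07, where p-values were adjusted for all genes tested. Ifnb1 entered that test through the macrophages alone, so the call adds nothing to the values. This set holds no NTC cells, so whether this rise depends on the loss of Adar was not tested in it.

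In the baricitinib series, Ifnb1 stood at -2.78 in each of the NTC libraries at 0, 0.016 and 0.4 µM. At 0.0006 µM 1 of 3 NTC libraries was above it, at -2.08, and at 10 µM 1 of 3, at -2.12, each with 1 read. Adar1 KO macrophages stood at 0.40, -0.27 and -0.22 log2 CPM without the drug, with 16, 7 and 10 reads. At 0.0006 µM they stood at 0.72, -1.87 and -0.20, with 16, 1 and 10 reads, and at 0.016 µM at 0.15, 0.13 and -0.10. In these 3 doses the 9 KO libraries all lay above the 10 NTC libraries, but the lowest KO library rests on 1 read, as does the highest NTC library, and lies above it by its lower depth. At 0.4 µM the KO libraries split, at -2.78, 6.02 and -2.29 log2 CPM, with 0, 618 and 1 reads. At 10 µM the 4 KO libraries were at the lowest value. In order of group means, the 5 NTC groups and the KO group at 10 µM come first, between -2.78 and -2.55, with overlapping values. The KO groups at 0.0006, 0, 0.016 and 0.4 µM follow, from -0.45 to 0.32, and these 4 overlap each other.

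Permuting genotype labels within each dose over the 33 libraries gave a mean difference of 2.11 log2 units between KO and NTC (two-sided permutation test, p = 4e-05). Leaving out each library in turn gave 1.54 to 2.42 log2 units, with permutation p from 2e-05 to 0.00011, and the lowest difference was that without KO 0.4 µM replicate 2 (permutation p = 7e-05). At 0 µM alone the difference was 2.75 log2 units and the exact permutation p was 0.1, the smallest that 3 against 3 libraries allow. There the KO mean of 0.855 CPM was at least 3.86-fold higher than in NTC macrophages, and at 0.016 µM it was at least 3.06-fold higher. Against the KO group at 10 µM the untreated KO group was at least 4.16-fold higher. The study describes the replicates of this series as separately differentiated cultures, and each genotype carries a single guide. The permutation p-values therefore cover spread between cultures and not between lines. Genotype cannot be told apart from line in any comparison of KO with NTC cells.

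The limma differences between KO and NTC were 2.75 (SE 1.19) at 0 µM, 2.10 (SE 1.19) at 0.0006 µM, 2.84 (SE 1.11) at 0.016 µM and 3.10 (SE 1.11) at 0.4 µM, with adjusted p of 0.0897, 0.197, 0.0503 and 0.0618. None of the 4 passed the threshold of 0.05 on adjusted p. Without KO 0.4 µM replicate 2, an alternative chosen after seeing the data, adjusted p in limma was 5.88e-05, 0.00114 and 1.09e-05 for the same differences at the 3 lower doses, within ranges over the alternatives of 5.88e-05 to 0.45, 0.00114 to 0.529 and 1.09e-05 to 0.362. At 0.4 µM the difference was then 0.25 log2 units with an adjusted p of 0.834. It was 4.65 (adjusted p 0.00417) without KO replicate 1 and 4.40 (adjusted p 0.0101) without KO replicate 3, and the adjusted p over the alternatives at that dose ran from 0.00417 to 0.834. Within KO cells, 10 µM against 0 µM gave -2.75 log2 units (SE 1.11, adjusted p 0.0315). That call was lost without KO 0 µM replicate 1 (-2.54, adjusted p 0.0899), replicate 2 (-2.87, 0.0547) or replicate 3 (-2.84, 0.0554) or without KO 10 µM replicate 2 (-2.75, 0.0505), and with no filter (-2.75, 0.0501). Its adjusted p ran from 5.54e-06, without KO 0.4 µM replicate 2, to 0.297, with log2 of CPM plus 1. The interaction of knockout and drug was -2.97 log2 units (SE 1.62, adjusted p 0.15, from 0.000659 to 0.529 over the alternatives), so a difference between genotypes in the response to 10 µM did not pass. Ifnb1 entered the tests of this series only through KO libraries, and its fitted values depend on the prior count, so the bounds and the detection counts carry the comparison.

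The other 20 interferon genes of the table were low in most libraries. Each was above its lowest value in at least 1 library, 16 passed 1 CPM in at least 1 library and 2 did so in at least 3, Ifnk and Ifng. Of the 20, 15 had their highest value in KO 0.4 µM replicate 2, where Ifna5 reached 43.8 CPM, Ifna2 34.7 CPM, Ifna4 28.2 CPM and Ifna1 20.1 CPM. That library also held 618 of the Ifnb1 reads, and the 2 other libraries of its group held at most 1. Ifna2, Ifna4 and Ifna5 also stood above the lowest value in each sgRNA 1 and sgRNA 2 macrophage library. Ifna5 stood at 0.55, -1.86 and -1.91 log2 CPM with sgRNA 1 and from -0.98 to -0.46 with sgRNA 2. These genes stood at the lowest value in progenitors with guides and in NTC macrophages replicates 1 and 3. In untreated KO macrophages of the baricitinib series Ifna4 stood at the lowest value. Ifng, the ligand of the receptor that Ifngr1 and Ifngr2 form, reached 106 and 78.1 CPM in ER-Hoxb8 MLCs replicates 3 and 6, the libraries with most lymphocyte markers, and 2.54, 0.41, 0.19 and 0 CPM in replicates 1, 2, 4 and 5. In those replicates 3 and 6, natural killer markers summed to 19.8 and 56.1 CPM. Of these 2 markers, Klrb1c stood at 17.4 and 6.69 CPM there and also at 12.6 and 11.8 CPM in replicates 1 and 5. The part of lymphocytes and natural killer cells in the Ifng reads was not tested. Ifnk, which encodes interferon kappa, peaked at 4.14 CPM in ER-Hoxb8 MLCs replicate 4. It was 3.52 log2 units higher in BMD MLCs than in microglia (SE 0.67, adjusted p 0.000306) and 2.27 higher in ER-Hoxb8 MLCs (SE 0.67, adjusted p 0.00954). Ifnk passed 1 CPM in only 11 libraries of all sets, so these fitted differences rest on low values and depend on the prior count.

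The receptor genes were read in every library. In the set of progenitors and monocytes, the comparison of BM monocytes with BM progenitors asks what changes when marrow cells become monocytes. Ifnar1 stood at 6.17, 6.19 and 5.85 log2 CPM in BM progenitors and at 7.25, 7.30 and 6.49 in BM monocytes. Ifngr1, the chain that binds interferon gamma, stood at 8.77, 8.23 and 8.43 in progenitors and at 9.58, 9.71 and 9.31 in monocytes. Ifngr2, the chain that carries Jak2, stood at 2.11, 3.43 and 2.54 and at 4.68, 4.69 and 5.29. Ifnar2 stood at 3.82 to 4.10 and at 4.33 to 5.20. Of the 4 receptor genes tested, 1 passed, Ifngr2, at 2.19 log2 units higher in monocytes (SE 0.41, adjusted p 0.00626), where 13.8% of all genes passed. Ifnar1 was 0.94 higher (SE 0.31, adjusted p 0.0657), Ifnar2 0.80 (SE 0.35, adjusted p 0.146) and Ifngr1 1.06 (SE 0.33, adjusted p 0.0563). Ifnar1 passed without BM monocytes replicate 3, at 1.20 and an adjusted p of 0.048, in a range of 0.000427 to 0.199 over its alternatives. Adar stood at 5.36, 5.11 and 5.63 in progenitors and at 6.32, 6.21 and 5.56 in monocytes, 0.67 higher (SE 0.31, adjusted p 0.178).

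ER-Hoxb8 4div cells were compared with ER-Hoxb8 progenitors to follow the line in its first days of differentiation. Ifnar1 stood at 7.40, 7.98 and 6.86 in progenitors and at 8.06, 7.93 and 8.34 in 4div cells. Ifngr2 stood at 4.25, 4.86 and 3.47 and at 4.67, 4.92 and 5.03. Both pairs of groups overlap through progenitor replicate 2, the replicate with most macrophage markers. None of the 4 receptor genes passed (0.0% of all genes did), with Ifnar1 at 0.70 log2 units (SE 0.31, adjusted p 0.518), Ifnar2 at 0.15, Ifngr1 at -0.09 and Ifngr2 at 0.68 (SE 0.41, adjusted p 0.597). In limma 0 of 12056 genes passed here, and 1129 had an unadjusted p under 0.05. Without progenitor replicate 2, 1337 genes passed, and none of the 4 receptor genes did with any library of the compared groups left out. By mean level, Ifnar1 rises through this set from BM progenitors at 6.07 (standard deviation, SD, 0.19) to BM monocytes at 7.01 (SD 0.45), ER-Hoxb8 progenitors at 7.41 (SD 0.56) and 4div cells at 8.11 (SD 0.21), and the last 3 overlap as neighbors. In Ifnar2, Ifngr1 and Ifngr2, BM progenitors are lowest by mean and the other 3 groups overlap. In Ifnar2 the ER-Hoxb8 progenitors overlap BM progenitors as well.

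Macrophages of both sources were compared with each other. ER-Hoxb8 macrophages stood at 8.26, 8.45 and 7.05 log2 CPM in Ifnar1 and BMD macrophages at 7.85, 7.81 and 7.94. In Ifngr1 they stood at 9.95, 9.91 and 9.71 against 9.15, 8.80 and 8.19, which do not overlap, while Ifnar1 did. In limma 0 of 4 receptor genes passed, where 1.96% of all genes did, and 1071 genes had an unadjusted p under 0.05. Ifngr1 was 1.15 log2 units higher in ER-Hoxb8 macrophages (SE 0.44, adjusted p 0.317), and the other 3 differed by -0.16 to 0.05.

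**Figure D2:**
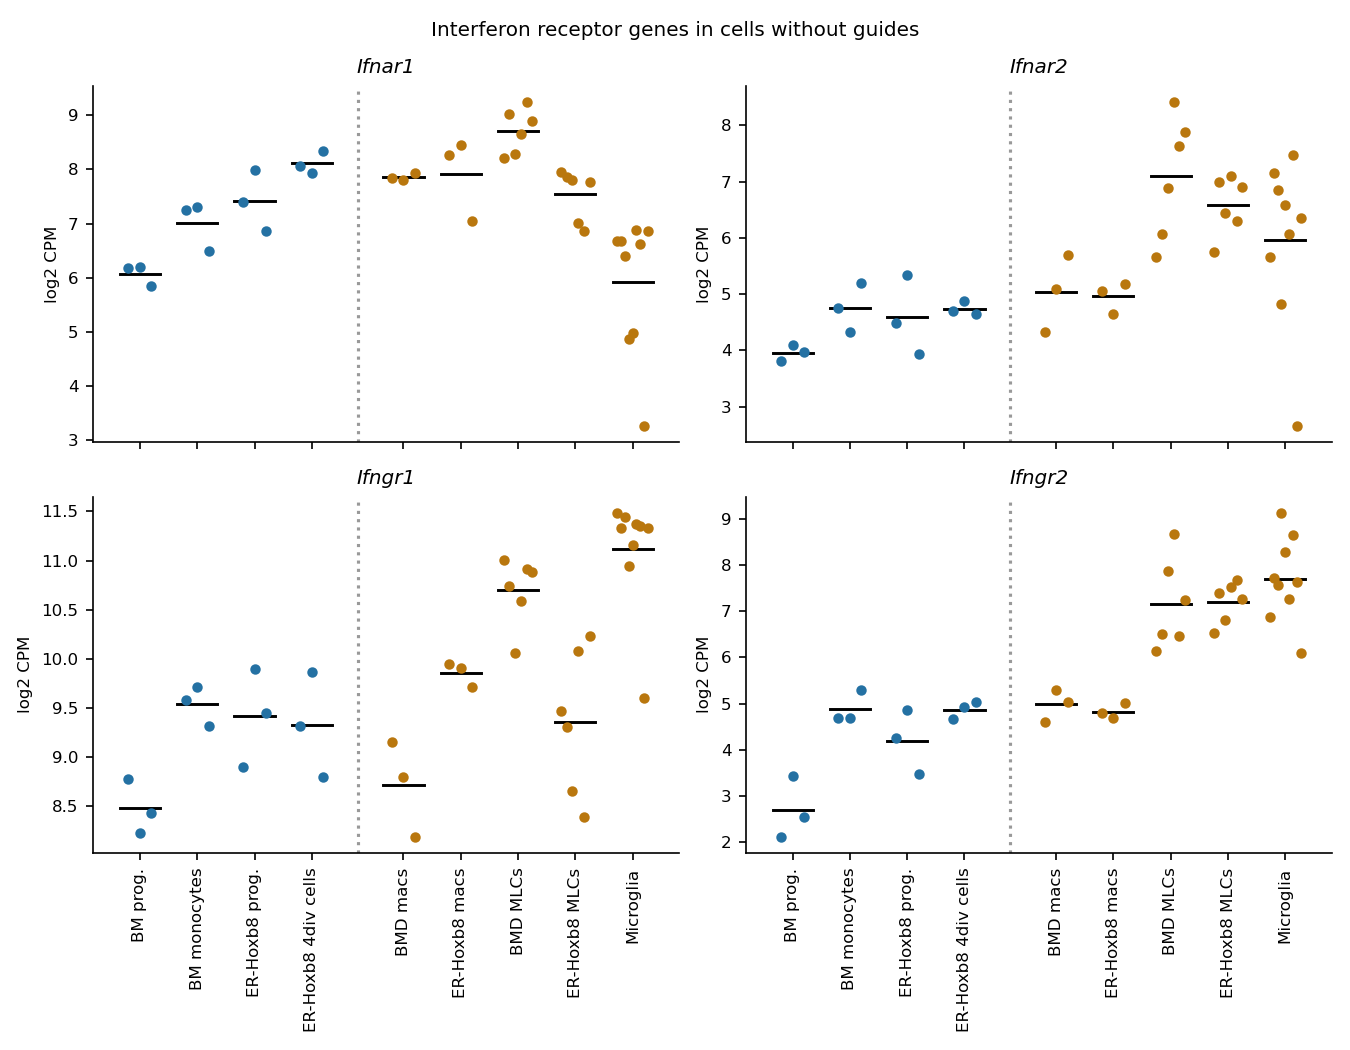
Receptor genes in log2 CPM in each library of the 9 groups without guides, with bars at group means; the dotted line parts columns of different scaling (blue, lowest value -4.34; orange, -3.62), and levels compare within a color. Ifngr2 lies higher in the 3 brain groups than in macrophages, and the lowest Ifnar1 and Ifnar2 points are microglia replicate 8.

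Ifngr2 was the receptor gene that passed in both kinds of MLC against macrophages. It stood at 4.61, 5.30 and 5.03 in BMD macrophages and between 6.13 and 8.68 in BMD MLCs (median 6.87). Ifngr1 stood at 9.15, 8.80 and 8.19 and between 10.059 and 11.0015 (median 10.81). Ifnar2 stood at 4.32, 5.10 and 5.70 and between 5.66 and 8.41 (median 7.26). BMD MLCs lay above BMD macrophages without overlap in Ifngr1 and Ifngr2, and in Ifnar2 the lowest MLC library lay just under the highest macrophage library. Of 4 receptor genes, 3 rose in BMD MLCs, where 30.6% of all genes passed: Ifngr2 by 2.17 log2 units (SE 0.52, adjusted p 0.00247), Ifngr1 by 1.99 (SE 0.38, adjusted p 0.000371) and Ifnar2 by 2.05 (SE 0.72, adjusted p 0.0309). The Ifnar2 call was lost without BMD macrophages replicate 1 (1.69, adjusted p 0.146) or replicate 2 (2.08, 0.0699), or without BMD MLCs replicate 4 (1.79, 0.0686), replicate 5 (1.94, 0.0526) or replicate 6 (1.89, 0.0583), and also with no filter (2.05, 0.0515), in a range of 1.21e-06 to 0.146. Ifnar1 lay between 8.21 and 9.24 in BMD MLCs (median 8.78) and at 7.85, 7.81 and 7.94 in BMD macrophages, which do not overlap, at 0.85 log2 units (SE 0.57, adjusted p 0.264). It passed with the compared groups alone (0.85, adjusted p 0.017), a term for replicate (1.06, 0.0453) or library weights (0.996, 0.000918), in a range of 0.000918 to 0.386. In these libraries neutrophil markers summed to between 2131 and 15708 CPM in BMD MLCs and to at most 7.15 CPM in BMD macrophages, and their part in the receptor values was not tested.

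ER-Hoxb8 MLCs shared the higher Ifngr2 but not the higher Ifngr1. Ifngr2 stood at 4.79, 4.68 and 5.01 in ER-Hoxb8 macrophages and between 6.53 and 7.69 in ER-Hoxb8 MLCs (median 7.32). Ifnar2 stood at 5.06, 4.65 and 5.18 and between 5.75 and 7.10 (median 6.68). Neither pair of groups overlaps. Ifngr1 stood at 9.95, 9.91 and 9.71 and between 8.40 and 10.23 (median 9.39), with overlap. Of 4 receptor genes, 1 rose where 34.8% of all genes passed, Ifngr2 by 2.37 log2 units (SE 0.52, adjusted p 0.00099). Ifnar2 was 1.62 higher (SE 0.72, adjusted p 0.0796), Ifngr1 -0.50 (SE 0.38, adjusted p 0.315) and Ifnar1 -0.37 (SE 0.57, adjusted p 0.634). Ifnar2 passed with microglia replicate 8 left out of the fit, at 1.62 and an adjusted p of 0.0164 in a range of 0.00849 to 0.233. Over its 18 alternatives, replicates 3 and 6 left out among them, Ifngr2 stayed between 2.03 and 2.66 and past the threshold. The difference between the 2 kinds of MLC in their Ifngr1 response was not tested.

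Against microglia, both kinds of MLC were higher in Ifnar1. Microglia ranged from 3.26 to 6.87 in Ifnar1 (median 6.63), BMD MLCs from 8.21 to 9.24 and ER-Hoxb8 MLCs from 6.87 to 7.96 (median 7.79). BMD MLCs do not overlap microglia, and the lowest ER-Hoxb8 MLC library meets the highest microglia library. In Ifngr1 microglia ranged from 9.60 to 11.49 (median 11.34), above ER-Hoxb8 MLCs in each library but replicate 8. Of 4 receptor genes, 1 passed between BMD MLCs and microglia, where 20.5% of all genes did, and 2 between ER-Hoxb8 MLCs and microglia, where 33.9% did. Ifnar1 was 2.80 log2 units higher in BMD MLCs (SE 0.42, adjusted p 1.59e-05) and 1.63 higher in ER-Hoxb8 MLCs (SE 0.42, adjusted p 0.0036). Ifngr1 was lower in ER-Hoxb8 MLCs, at -1.76 (SE 0.29, adjusted p 2.2e-05), and in BMD MLCs it was -0.42 (SE 0.29, adjusted p 0.357). Without microglia replicate 8 the Ifnar1 differences were 2.47 (adjusted p 1.35e-06, range 1.67e-10 to 0.000455) and 1.30 (adjusted p 0.00188, range 0.000869 to 0.0747), and the Ifngr1 difference of ER-Hoxb8 MLCs was -1.95 (adjusted p 3.92e-07, range 5.42e-09 to 0.00208). With the 3 WTHox libraries alone, the Ifnar1 difference of ER-Hoxb8 MLCs was 1.30 with an adjusted p of 0.0747. Ifnar2 and Ifngr2 ranged from 2.65 to 7.48 and from 6.09 to 9.14 in microglia and overlapped both kinds of MLC, and their differences, from -0.55 to 1.13, did not pass.

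By mean level in this set, Ifnar1 runs from microglia at 5.92 (SD 1.26) through ER-Hoxb8 MLCs at 7.55 (SD 0.47), BMD macrophages at 7.87 (SD 0.07) and ER-Hoxb8 macrophages at 7.92 (SD 0.76) to BMD MLCs at 8.72 (SD 0.41), and each pair of neighbors overlaps. Ifngr1 runs from BMD macrophages at 8.71 (SD 0.49) through ER-Hoxb8 MLCs at 9.36 (SD 0.74), ER-Hoxb8 macrophages at 9.86 (SD 0.13) and BMD MLCs at 10.70 (SD 0.35) to microglia at 11.11 (SD 0.59), with a gap between ER-Hoxb8 macrophages and BMD MLCs. Ifngr2 separates both macrophage groups, at 4.83 and 4.98, from the 3 brain groups, at 7.15 to 7.70, and Ifnar2 neighbors overlap throughout, from 4.97 in ER-Hoxb8 macrophages to 7.09 in BMD MLCs. Adar ran from 3.24 to 5.74 in BMD MLCs (median 4.73), from 4.11 to 6.08 in ER-Hoxb8 MLCs (median 5.19) and from 0.87 to 5.63 in microglia (median 3.43). It stood at 5.72, 5.56 and 6.29 in BMD macrophages and at 5.83, 5.97 and 4.37 in ER-Hoxb8 macrophages.

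In the guide lines, the level of Adar is given first, because the guides target it; the RNA of a gene edited by a guide need not fall, so the level checks nothing about the label. Adar stood at 4.36, 4.23 and 4.24 log2 CPM in sgRNA 1 progenitors and at 4.20, 3.42 and 4.28 in NTC progenitors, which overlap. It stood at 6.96, 7.15 and 7.01 in sgRNA 1 macrophages and at 5.73 and 5.67 in NTC macrophages, with replicate 2 at 5.86. The KO macrophages were thus higher in each library, by 1.34 log2 units (SE 0.21, adjusted p 0.000976), and progenitors differed by 0.31 (SE 0.19, adjusted p 0.924). In sgRNA 2 cells Adar stood at 4.35, 4.56 and 4.36 in progenitors and between 6.99 and 7.03 in macrophages. Adar is itself known as a gene that interferon induces.

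Progenitors with sgRNA 1 were compared with NTC progenitors. Ifnar1 stood at 6.08, 5.82 and 5.81 in sgRNA 1 progenitors and at 6.08, 5.78 and 5.75 in NTC progenitors. Ifngr1 stood at 9.17, 9.09 and 8.95 and at 9.33, 9.49 and 9.20, without overlap. In limma 0 of 4 receptor genes passed, where 0.936% of all genes did, and 725 genes had an unadjusted p under 0.05. The differences were 0.04 in Ifnar1, 0.16 in Ifnar2, -0.27 in Ifngr1 (SE 0.12, adjusted p 0.755) and -0.06 in Ifngr2.

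In macrophages with the same guides, Ifnar1 and Ifngr1 were lower with sgRNA 1. Ifnar1 stood at 6.77, 7.06 and 7.13 in sgRNA 1 macrophages and at 7.34 and 7.88 in NTC macrophages, with replicate 2 at 7.50. Ifngr1 stood at 9.60, 9.20 and 9.29 and at 10.04 and 10.01, with replicate 2 at 9.81. Every sgRNA 1 library lay under every NTC library in both genes. Of 4 receptor genes, 2 passed, where 21.8% of all genes did. Ifnar1 fell by 0.62 log2 units (SE 0.18, adjusted p 0.0292) and Ifngr1 fell by 0.66 (SE 0.14, adjusted p 0.00518). The Ifnar1 call was lost without sgRNA 1 macrophages replicate 1 (-0.52, adjusted p 0.0836) or replicate 2 (-0.66, 0.0564) and without NTC macrophages replicate 3 (-0.35, 0.251), and also with no filter (-0.62, 0.0562) or the compared groups alone (-0.62, 0.102), in a range of 0.0113 to 0.251. With a term for replicate (the replicate block) Ifnar1 differed by -0.61 with an adjusted p of 0.0531. Ifngr2 stood at 6.31, 6.07 and 6.26 in sgRNA 1 macrophages and at 5.83 and 5.97 in NTC macrophages, 0.31 higher (SE 0.14, adjusted p 0.133). It passed with NTC macrophages replicate 2 added despite its own scaling, at 0.53 and an adjusted p of 0.0368 in a range of 0.0368 to 0.446. Ifnar2 differed by 0.20 (SE 0.30, adjusted p 0.691). Monocyte markers summed to between 617 and 1419 CPM in sgRNA 1 macrophages and to at least 1487 CPM in NTC macrophages, and their part in the receptor values was not tested.

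Maturation from progenitor to macrophage was compared among cells with the same guide. NTC progenitor libraries have names that begin with NTC2, and those of NTC macrophages replicates 1 and 3 do not. Whether these come from the same NTC line cannot be told from the labels. In NTC cells Ifnar1 stood at 6.08, 5.78 and 5.75 in progenitors and at 7.34 and 7.88 in macrophages. Ifngr2 stood at 3.93, 4.30 and 4.02 and at 5.83 and 5.97. Both genes were higher in each macrophage library. Of 4 receptor genes, 3 rose in NTC macrophages, where 71.8% of all genes passed, Ifnar1 by 1.74 log2 units (SE 0.18, adjusted p 4.15e-06), Ifngr1 by 0.69 (SE 0.14, adjusted p 0.000737) and Ifngr2 by 1.82 (SE 0.14, adjusted p 3.35e-07). Ifnar2 stood at 4.60, 4.97 and 5.24 in NTC progenitors and at 4.48 and 5.66 in NTC macrophages, a difference of 0.13 (adjusted p 0.711). Over the alternatives it ran from -0.46 to 0.72, so its direction is not firm. The value of 0.72 came without NTC macrophages replicate 1, which leaves 1 library in that group. In sgRNA 1 cells 3 of 4 rose where 71.3% passed, Ifnar1 by 1.08 (SE 0.16, adjusted p 8.1e-05), Ifngr2 by 2.19 (SE 0.12, adjusted p 2.39e-08) and Ifngr1 by 0.30 (SE 0.12, adjusted p 0.0468). Ifngr1, at 9.17, 9.09 and 8.95 in these progenitors and at 9.60, 9.20 and 9.29 in macrophages, gave -0.06 after quantile normalization. It missed the threshold without progenitor replicate 1 (0.35, adjusted p 0.051), 2 (0.30, 0.0874) or 3 (0.24, 0.154) and without macrophage replicate 1 (0.18, 0.183) or 3 (0.33, 0.0571), and also with no filter (0.30, 0.0902), the compared groups alone (0.30, 0.0563) or library weights (0.19, 0.0656), in a range of 0.028 to 0.59. Both comparisons share libraries with those between genotypes, so these calls are not independent of them.

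In sgRNA 2 cells all 4 receptor genes differed between macrophages and progenitors, where 81.3% of all genes passed. Ifngr1 stood at 9.52, 9.52 and 9.49 in progenitors and at 8.52, 8.78, 8.68, 8.54 and 8.85 in macrophages. Ifnar1 stood at 6.51, 6.45 and 6.38 and at 6.98, 7.15, 7.08, 7.03 and 7.12. Ifngr2 stood at 3.07, 3.73 and 3.87 and at 5.68, 6.04, 6.12, 5.77 and 5.61. None of these groups overlap. Ifngr1 fell by 0.83 log2 units (SE 0.07, adjusted p 2.12e-06), and Ifnar1 rose by 0.63 (SE 0.05, adjusted p 1.06e-06), Ifnar2 by 0.78 (SE 0.16, adjusted p 0.00108) and Ifngr2 by 2.28 (SE 0.18, adjusted p 8.77e-07). The fall of Ifngr1 stands against its rise in NTC macrophages and a rise in sgRNA 1 macrophages that reversed after quantile normalization. The difference between the lines was not tested, since they lie in sets of different scaling.

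In the baricitinib series Adar again comes first. It stood at 5.12, 4.94 and 4.69 log2 CPM in NTC macrophages without the drug and at 7.42, 6.52 and 6.37 in KO macrophages. With 10 µM it stood at 3.70, 3.64 and 3.22 in NTC and at 1.55, 2.15, 2.91 and 2.03 in KO macrophages. The order of the genotypes was thus opposite at the ends of the series, with KO higher at 0 µM by 1.85 (SE 0.48, adjusted p 0.0051) and lower at 10 µM by -1.36 (SE 0.45, adjusted p 0.0146). Between them, KO was higher by 1.18 at 0.0006 µM (adjusted p 0.0647), 1.77 at 0.016 µM (adjusted p 0.00303) and 1.01 at 0.4 µM (adjusted p 0.136), where KO replicate 2 stood at 7.38 and replicates 1 and 3 at 4.12 and 4.21. Within KO cells Adar fell by 4.61 log2 units at 10 µM (SE 0.45, adjusted p 8.68e-10), in NTC cells it differed by -1.40 (SE 0.48, adjusted p 0.0502), and the interaction was -3.21 (SE 0.66, adjusted p 0.000369).

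Ifnar1 was lower in KO than in NTC macrophages at most doses. Without the drug it stood at 6.88, 6.86 and 6.94 in KO and at 7.82, 7.64 and 7.60 in NTC macrophages. At 0.0006 µM it stood at 6.71, 6.70 and 6.43 against 7.69, 7.58 and 7.58, and at 0.016 µM at 6.82, 6.80 and 6.72 against 7.71, 7.65, 7.57 and 7.63. The genotypes do not overlap at these 3 doses. At 0.4 µM it stood at 7.34, 7.79 and 7.18 against 7.71, 7.59, 7.91 and 7.57, with overlap through KO replicate 2, and at 10 µM at 6.76, 6.92, 6.84 and 6.93 against 7.28, 7.53 and 7.29, without overlap. The gene fell by 0.79 log2 units at 0 µM (SE 0.12, adjusted p 9.02e-06), by 1.00 at 0.0006 µM (SE 0.12, adjusted p 1.74e-07), by 0.86 at 0.016 µM (SE 0.11, adjusted p 5.48e-07) and by 0.50 at 10 µM (SE 0.11, adjusted p 0.000392). At 0.4 µM the difference was -0.26 (SE 0.11, adjusted p 0.108), and it passed without KO replicate 2, at -0.44 with an adjusted p of 0.00454 in a range of 1.25e-05 to 0.48. Monocyte markers moved with genotype as well, from 625 to 689 CPM in untreated KO and from 1106 to 1396 CPM in untreated NTC macrophages. At 10 µM both genotypes held at least 1711 CPM of them.

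Ifngr2 diverged between the genotypes along the doses. Without the drug it stood at 4.73, 5.37 and 5.25 in KO and at 5.42, 5.40 and 5.04 in NTC macrophages. At 0.016 µM it stood at 5.93, 5.92 and 5.88 against 5.39, 5.14, 5.76 and 5.33, and at 10 µM at 6.35, 6.50, 6.71 and 6.45 against 5.28, 5.22 and 5.33. The genotypes overlap at 0 and 0.0006 µM and are apart from 0.016 µM on, as they also are at 0.4 µM, at 5.54, 6.35 and 5.95 against 5.00 to 5.52. KO was -0.17 from NTC at 0 µM (adjusted p 0.545), 0.29 at 0.0006 µM (adjusted p 0.26), 0.51 at 0.016 µM (SE 0.17, adjusted p 0.0254), 0.66 at 0.4 µM (SE 0.17, adjusted p 0.012) and 1.22 at 10 µM (SE 0.17, adjusted p 1.83e-06). The call at 0.016 µM was lost without NTC replicate 2 (0.42, adjusted p 0.0895) or 4 (0.48, 0.0549) and without KO replicate 1 (0.50, 0.0679), 2 (0.50, 0.0684) or 3 (0.52, 0.0508), in a range of 0.00892 to 0.0895. The call at 0.4 µM was lost without KO replicate 2 (0.46, adjusted p 0.135) and with the compared groups alone (0.66, 0.166), in a range of 0.0014 to 0.166. Within KO cells 10 µM raised Ifngr2 by 1.39 log2 units (SE 0.17, adjusted p 7.54e-08), in NTC cells it differed by -0.01 (adjusted p 0.988), and the interaction passed at 1.39 (SE 0.25, adjusted p 0.000104).

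**Figure D3:**
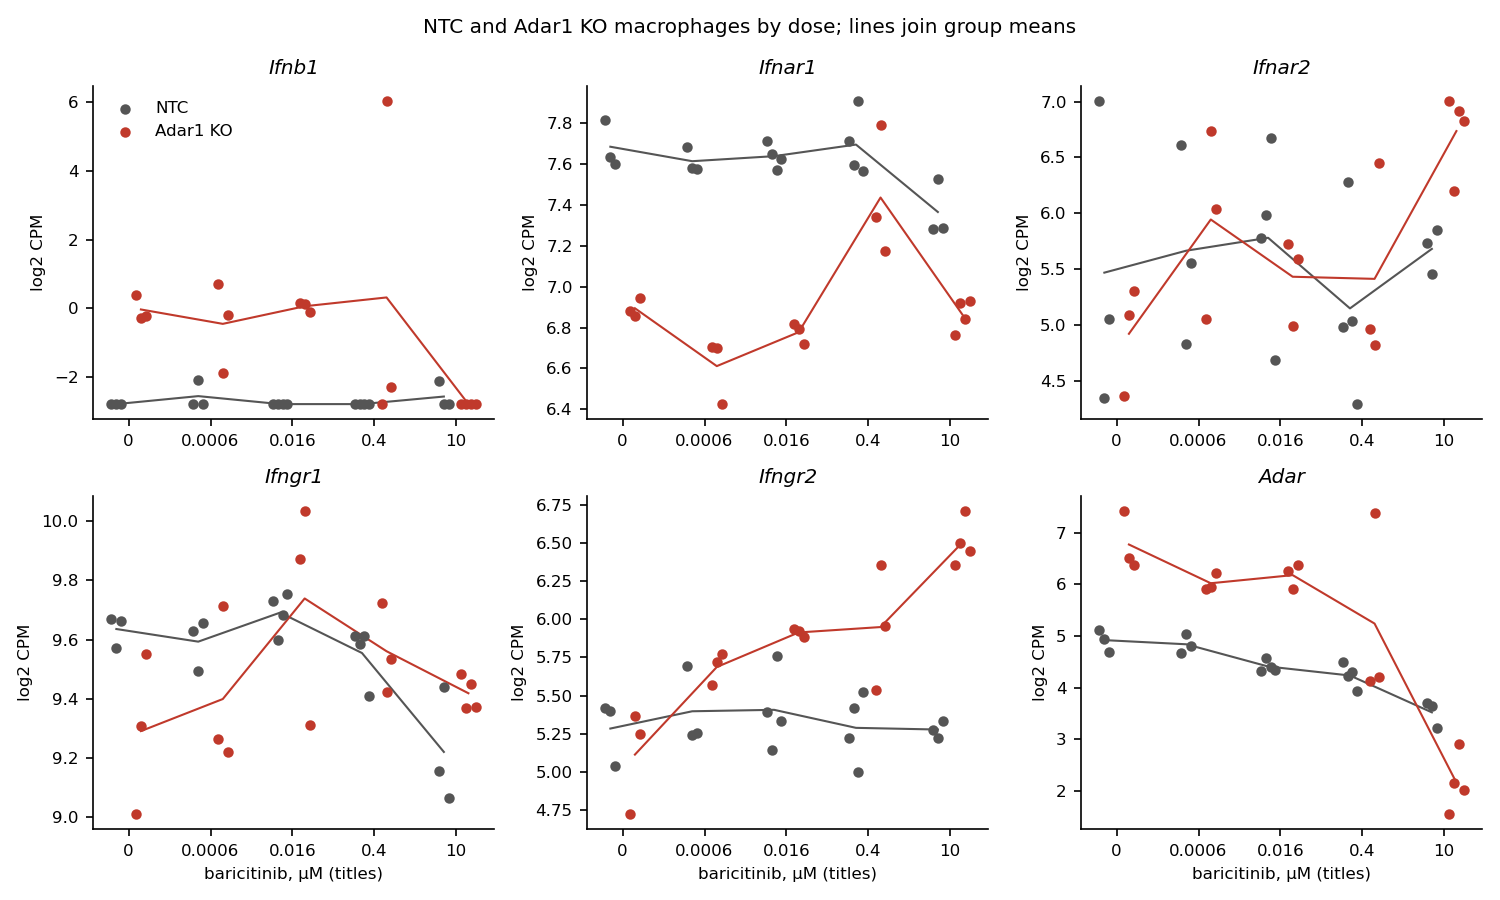
The 5 genes and Adar in log2 CPM in each NTC (gray) and Adar1 KO (red) macrophage library by baricitinib dose, in equal steps along the axis; lines join group means and each panel has its own scale. Ifnar1 lies lower in KO libraries at most doses, but the genotypes overlap at the dose just below 10 µM. In KO libraries Ifngr2 parts from NTC as the dose increases, and Ifnb1 falls to the lowest value at 10 µM.

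Ifnar2 varied widely between replicates of this series. NTC macrophages stood at 7.00, 4.34 and 5.06 without the drug and at 5.73, 5.46 and 5.85 with 10 µM. KO macrophages stood at 4.36, 5.09 and 5.30 without it and at 7.00, 6.20, 6.91 and 6.82 with 10 µM. The KO groups do not overlap, and the NTC groups do. Ifnar2 rose by 1.82 log2 units in KO cells (SE 0.55, adjusted p 0.00492), and the NTC difference was 0.21 (SE 0.59, adjusted p 0.856). The interaction was 1.60 (SE 0.80, adjusted p 0.114), so the responses were not shown to differ. Without NTC 0 µM replicate 2 it was 2.17 with an adjusted p of 0.0387, in a range of 0.0387 to 0.408. Over the alternatives the interaction ran from 0.84 to 2.17 and the NTC difference from -0.35 to 0.98. Between genotypes Ifnar2 did not pass at any dose, with differences from -0.55 at 0 µM to 1.06 at 10 µM (adjusted p 0.119). Over the alternatives the difference at 0 µM ran from -1.11 to 0.22. At 10 µM the genotypes do not overlap, and Ifnar2 passed there with the compared groups alone (1.06, adjusted p 0.00367), in a range of 0.00367 to 0.249.

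Ifngr1 passed between KO and NTC macrophages at none of the doses. It stood at 9.01, 9.31 and 9.55 in untreated KO and at 9.67, 9.57 and 9.66 in untreated NTC macrophages, which do not overlap. With 10 µM it stood at 9.48, 9.37, 9.45 and 9.37 in KO and at 9.16, 9.44 and 9.07 in NTC macrophages, which do. KO differed from NTC by -0.34 at 0 µM (SE 0.15, adjusted p 0.0856), which passed without KO replicate 3 (-0.48, adjusted p 0.029, range 0.0272 to 0.399), and by -0.19 to 0.20 at the other doses. With 10 µM it differed by -0.42 in NTC cells (SE 0.15, adjusted p 0.0578) and by 0.13 in KO cells. The NTC difference passed without NTC 10 µM replicate 2 (-0.52, adjusted p 0.0453) or KO 0.4 µM replicate 2 (-0.42, 0.0402), in a range of 0.00197 to 0.192. The interaction passed, at 0.54 (SE 0.20, adjusted p 0.0331), and was lost without NTC 0 µM replicate 1 (0.53, 0.0594) or 3 (0.53, 0.0613), NTC 10 µM replicate 1 (0.51, 0.0692) or 3 (0.47, 0.0906), KO 0 µM replicate 1 (0.40, 0.129) or KO 10 µM replicate 1 (0.52, 0.0525), and also with no filter (0.54, 0.0618) or quantile normalization (0.50, 0.0723). Its adjusted p ran from 0.00771 to 0.129.

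Counted over the 4 receptor genes with limma, 1 of 4 passed between KO and NTC macrophages at 0 µM (25.3% of all genes), 1 of 4 at 0.0006 µM (29.0%), 2 of 4 at 0.016 µM (32.2%), 1 of 4 at 0.4 µM (13.5%) and 2 of 4 at 10 µM (45.3%). With 10 µM against 0 µM, 0 of 4 passed in NTC cells (13.8% of all genes, and 3169 genes at an unadjusted p under 0.05), 2 of 4 in KO cells (65.8%), and 2 of 4 had an interaction (39.5%). The comparisons of this series share libraries with each other. In NTC cells Ifnar1 differed by -0.32 (SE 0.12, adjusted p 0.0629) at 10 µM and passed without KO 0.4 µM replicate 2 (adjusted p 0.014, range 0.00362 to 0.241). By mean level Ifnar1 runs from the KO groups at 0.0006, 0.016, 10 and 0 µM, at 6.61 to 6.89, to NTC at 10 µM, at 7.37 (SD 0.14), and KO at 0.4 µM, at 7.44 (SD 0.32), and then to the other NTC groups, at 7.61 to 7.70, with gaps between KO at 0.0006 and at 0.016 µM and between untreated KO and NTC at 10 µM. In Ifnar2 and Ifngr1 each pair of neighboring groups in the order overlaps.

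**Figure D4:**
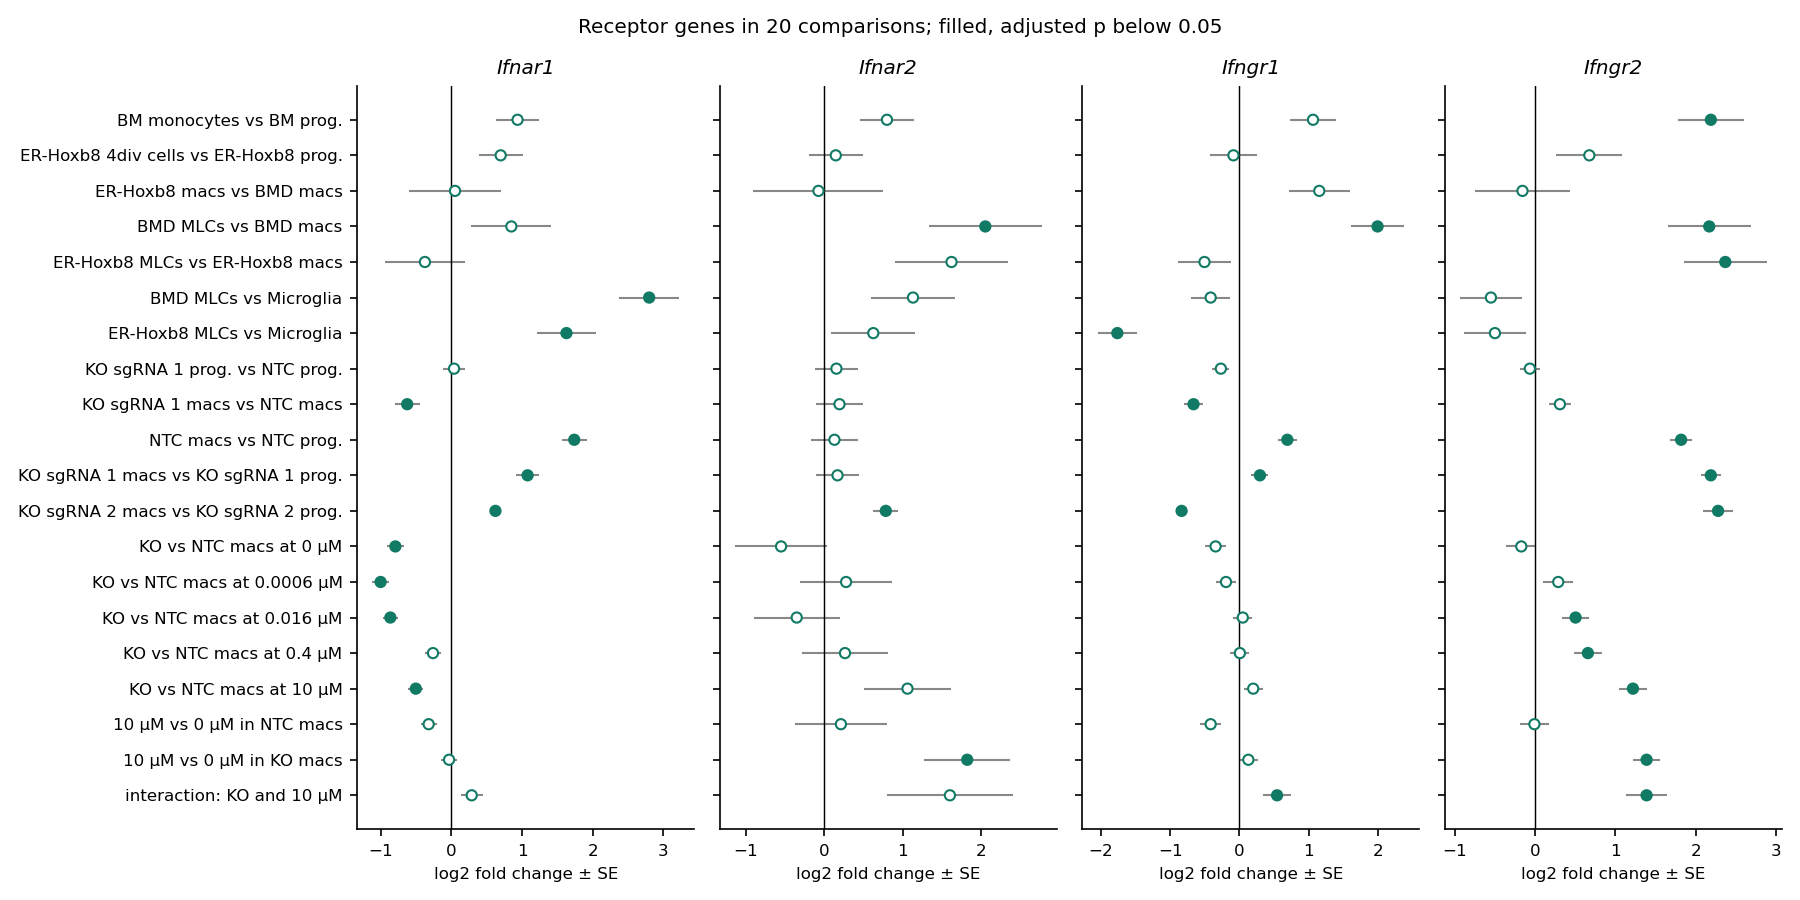
Log2 fold change and SE of each receptor gene in the 20 comparisons, first-named group over second; filled points passed an adjusted p of 0.05 in limma. Filled Ifngr2 points lie to the right of 0 in 11 comparisons, and Ifnar1 points lie on both sides.

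Genes that carry the signal from these receptors were counted beside them, from lists of pathway genes. Among 7 receptor signaling genes, 3 rose in untreated KO against NTC macrophages and 0 fell, with a median difference of 0.71 log2 units against -0.02 over all genes, of which 25.3% passed. Stat2 rose by 2.79 (SE 0.69, adjusted p 0.00372) and Irf9 by 1.31 (SE 0.41, adjusted p 0.02). In sgRNA 1 against NTC macrophages 5 of 7 rose (median 1.43, all genes 0.05), where 21.8% passed. At 10 µM 1 of 7 rose in KO against NTC macrophages, Jak2, and 1 fell, Stat3, with a median of -0.03, where 45.3% of all genes passed (2 fell without KO 0.4 µM replicate 2). With 10 µM in KO cells 1 rose and 4 fell (median -1.65, all genes 0.05), where 65.8% passed (2 rose without that library), with Stat2 at -5.26 (SE 0.65, adjusted p 6.21e-08). In ER-Hoxb8 MLCs 3 of 7 rose against ER-Hoxb8 macrophages (34.8% of all genes), and in BMD MLCs 2 rose and 1 fell against BMD macrophages (30.6%), near the shares of all genes.

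Targets that respond mainly to type I interferon (14 genes, such as the antiviral Ifit and Oas families) moved with genotype and drug. Median levels over the 14 were 6.85, 6.97 and 6.87 log2 CPM in untreated KO libraries and 1.91, 2.07 and 1.74 in untreated NTC libraries. In KO against NTC macrophages 14 of 14 rose at 0 µM (median 4.42), 11 at 0.0006 µM (4.81), 14 at 0.016 µM (5.79), 13 at 0.4 µM (3.92) and 0 at 10 µM (0.23), and none fell, beside medians of all genes between -0.02 and 0.01 and shares of all genes that passed of 25.3%, 29.0%, 32.2%, 13.5% and 45.3%. At 0.4 µM the count was 5 of 14 and the median 1.10 without KO replicate 2, an alternative chosen after seeing the data, and at 10 µM 2 rose and 1 fell without it. At 0.0006 µM 14 rose without it. Ifit3 rose by 7.53 at 0 µM (SE 1.46, adjusted p 0.00032) and Ifi44 by 7.49 (SE 1.18, adjusted p 2.68e-05). With 10 µM, 13 of 14 fell in KO cells (median -7.21) and 4 of 14 in NTC cells (median -2.38), and 11 had a negative interaction (median -4.82), where 65.8%, 13.8% and 39.5% of all genes passed. Without KO 0.4 µM replicate 2 these counts were 14, 10 and 14. In sgRNA 1 against NTC macrophages 14 of 14 rose (median 4.79; 21.8% of all genes passed), and in sgRNA 1 against NTC progenitors 0 of 14 passed (median -0.24; 0.936%).

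The same targets were high in ER-Hoxb8 MLCs, where no guide was used. Their median level lay between 6.10 and 7.74 log2 CPM in the 6 ER-Hoxb8 MLC libraries, between 1.59 and 3.13 in BMD MLCs and between -1.15 and 1.43 in microglia. Against ER-Hoxb8 macrophages 13 of 14 rose in ER-Hoxb8 MLCs (median 4.98, all genes -0.15) and against microglia 14 of 14 (median 5.84, all genes -0.10), where 34.8% and 33.9% of all genes passed. Targets mainly of interferon gamma rose with them, 10 of 10 tested in both comparisons, with medians of 9.82 and 6.37, and H2-Aa, a chain of class II antigen presentation, rose by 12.40 against macrophages (SE 0.55, adjusted p 3.91e-15). Without replicate 3 or without replicate 6, the libraries with most Ifng reads, these counts were the same in both lists and both comparisons, with type II medians of 9.65 and 9.65 against macrophages. Each of these fits keeps the other library, so the counts without both were not tested. The filter asks for more than 1 CPM in at least 6 libraries, so a target low in macrophages can enter through the brain groups alone. A difference from a value near the lowest also depends on the prior count. In BMD MLCs 5 of 14 type I targets rose and 1 fell against BMD macrophages (median 1.07; 30.6% of all genes passed; 3 fell with microglia replicate 8 left out of the fit), 8 of 14 rose against microglia (median 1.70; 20.5% of all genes), and 6 of 10 type II targets rose against macrophages (median 3.71; 30.6%). In KO against NTC macrophages without the drug, 3 of 6 type II targets tested rose and 1 fell, where 25.3% of all genes passed, and 5 rose and 1 fell without KO 0.4 µM replicate 2, with Gbp2 at 5.33 (SE 1.20, adjusted p 0.00155) and Cd74 at -0.67 (SE 0.24, adjusted p 0.0409).

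Genes that act before Ifnb1, the sensors of nucleic acids and the factors that switch Ifnb1 on, form a list of 19. In untreated KO against NTC macrophages 5 rose and 0 fell (median 0.17), near the 25.3% of all genes that passed, with Irf7, a factor that amplifies interferon transcription, at 5.60 (SE 1.16, adjusted p 0.000677), and the RNA sensors Ddx58 at 2.92 (SE 0.77, adjusted p 0.00606) and Ifih1 at 2.32 (SE 0.72, adjusted p 0.0178). At 10 µM 1 rose and 7 fell (median -0.65), near the 45.3% of all genes, and without KO 0.4 µM replicate 2 there were 2 and 11, with Irf5 at -2.08 (SE 0.19, adjusted p 1.71e-09) and Ikbke at -1.93 (SE 0.31, adjusted p 9.57e-06). With 10 µM in KO cells 4 rose and 13 fell (median -1.20; 65.8% of all genes), with Irf7 at -9.47 (SE 1.08, adjusted p 1.69e-08). In sgRNA 1 progenitors 1 of 19 fell (0.936% of all genes passed), Tlr3, a sensor of double-stranded RNA, at -1.96 (SE 0.27, adjusted p 0.00526). Among 6 feedback genes, which dampen receptor signaling, 5 were tested in KO against NTC macrophages and 2 rose at 0 µM (median 0.94; 25.3% of all genes), with Usp18, which binds Ifnar2 and blocks signaling, at 4.90 (SE 1.34, adjusted p 0.00762). In ER-Hoxb8 MLCs 3 of 6 rose against macrophages (34.8% of all genes), with Socs1 at 6.85 (SE 0.86, adjusted p 1.23e-06).

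Of the 7 other class II cytokine receptor genes, which encode relatives of the interferon receptors, 4 were tested in the sgRNA 1 set. In sgRNA 1 against NTC macrophages 2 fell and 0 rose (median -0.40; 21.8% of all genes passed), Il10ra at -1.60 (SE 0.26, adjusted p 0.00106) and Il10rb, the neighbor of Ifnar1 and Ifnar2, at -0.75 (SE 0.10, adjusted p 0.00027). In untreated KO against NTC macrophages of the baricitinib series 0 of 3 tested passed in limma (25.3% of all genes), and 1 rose without KO 0.4 µM replicate 2. The gene that rose was not Il10rb, which stood at 6.75, 6.83 and 7.07 in KO and at 7.48, 7.00 and 7.17 in NTC libraries. In BMD MLCs against microglia Il10rb rose by 1.86 (SE 0.23, adjusted p 6.13e-07), beside the 2.80 of Ifnar1. In ER-Hoxb8 MLCs against macrophages it was at -0.80 (SE 0.30, adjusted p 0.0419), a call lost without macrophage replicate 1 (-0.59, 0.223) or 2 (-0.74, 0.13) and without MLC replicate 1 (-0.79, 0.0571), 2 (-0.78, 0.0638), 3 (-0.71, 0.0756) or 6 (-0.81, 0.0512). It was lost as well with no filter (-0.80, 0.0624), quantile normalization (-0.60, 0.147), the compared groups alone (-0.80, 0.0628) and the WTHox libraries alone (-0.58, 0.207).

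Genes whose group means run most like each member were listed over the 10 groups of the baricitinib series, as Pearson's r across 10 points that share cell line and run, with no p. For Ifnb1 these were Naa25 (r = 0.989), Tor1aip1 (0.984) and Gbp5 (0.983), with the mean of KO at 0.4 µM carried by replicate 2. Without that library they were Akap8l (0.995), Ifit2 (0.992) and Iigp1 (0.991). For Ifnar1 they were E230025N22Rik (0.998), Herc3 (0.984) and Pmp22 (0.981), and without the library Epas1 (0.994) and Cd5l (0.987). For Ifngr2 they were Casp6 (0.973) and Vps26b (0.971), also without it (0.979 and 0.979), and for Ifnar2 they were Tmem134 (0.987) and Tmem203 (0.971). For Ifngr1 the values were lower, with Lamtor4 (0.945) and Cast (0.894), and without the library Cast led (0.896) and Lamtor4 was not among the first 5.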

How the data were processed

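The deposited log2 CPM values were made by the authors, who trimmed reads with fastp, assigned them to transcripts with kallisto 0.46.0, summed them to genes with tximport as counts computed from TPM, and scaled libraries with TMM in edgeR. CPM were rebuilt here from these values with each set's lowest value as 0 reads, and depth was estimated from the steps between low values. The members and lists were chosen with earlier results of these data known.

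Tests used limma 3.58.1 in R 4.3.3 (trended variances, Benjamini-Hochberg adjustment, two-sided) within each set of columns, on genes above 1 CPM in at least 3 libraries, or 6 in the fit with cells from brain. A gene changed at an adjusted p below 0.05. Exact and sampled permutation tests (100000 permutations) and figures used Python 3.11.15, numpy 2.4.6, pandas 2.3.3 and matplotlib 3.10.9. Intervals and floors for Ifnb1 cover counting error and no difference between cultures.

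Named genes are the 5 members, Adar, the genes of largest change in each list and direction, and the genes of highest correlation with each member, and some of these are not reported here. Genes most like the receptors over the 5 groups with cells from brain were listed too and not described, because 5 points order few genes. The alternatives tried were no filter, log2 of CPM plus 1, quantile normalization, fits of the compared groups alone, a replicate block, library weights, an added limit of 2 on the log2 difference, leaving out each library, the GFPHox and WTHox libraries of ER-Hoxb8 MLCs apart, microglia without YSWT libraries, and NTC macrophages replicate 2 added.

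Libraries of the same number deviated together in ER-Hoxb8 4div cells against progenitors (correlation of deviations 0.226 to 0.427) and in sgRNA 1 against NTC progenitors (0.158 to 0.349), and in no other comparison with at least 3 shared numbers did each pair exceed 0.1. In sgRNA 1 against NTC macrophages the 2 pairs gave 0.153 and 0.158, too few to count as paired. This pairing comes from the values and not from the labels.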

Additional observations from a re-analysis of the deposited data

Results flagged for a closer look

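Ifngr1 in microglia replicate 8, at 9.60 log2 CPM, lies far below the other 8 libraries of its group, and its Ifnar1, Ifnar2 and Adar are the lowest of the group. The study sorted cells from brain by flow cytometry before RNA was extracted. This library has 12867 genes above the lowest value, against 15539 to 16716 in the other 8. It also holds the most markers of neurons and oligodendrocytes that were named above. An admixture of other brain cells despite the sort, a loss of RNA quality or a true difference in these microglia could each account for these values. These explanations were not tested and cannot be told apart here. Without this library the Ifnar1 differences of both kinds of MLC and the Ifngr1 difference of ER-Hoxb8 MLCs against microglia passed.

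Ifnb1 in microglia replicate 2, at -2.83, is the single microglia library above the lowest value, and it rests on 1 read. Ifngr1 in NTC macrophages at 0.4 µM replicate 4, at 9.41, lies under 3 libraries that fall close together. Of 31 sets of values tested for a library far from the rest, each 1 gene in 1 group, 3 stood out, at a threshold that marks about 1 set in 20 by chance.

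The response to 10 µM baricitinib differed between Adar1 KO and NTC macrophages in Ifngr1, by 0.542 log2 units, and in Ifngr2, by 1.39. The Ifngr1 difference is lost when any of 6 libraries is left out and was not followed further. For Ifngr2 a shift in the make-up of the cultures is one alternative to a change within cells, since macrophage markers summed to 3842 to 4453 CPM in KO and to 5420 to 5812 CPM in NTC macrophages at that dose. The part of these markers was not tested.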

How the results depend on the processing

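The number of the 5 genes that passed is given for each comparison as in the report and then under the alternatives that moved it by over 1.5 times. Ifnb1 is counted where it was tested, although it entered only through KO macrophages and its calls add nothing to the values. The receptor genes alone gave 4 in sgRNA 2 macrophages and 2 in 10 µM against 0 µM in KO cells. With no filter the count of sgRNA 1 against NTC macrophages stayed at 2 with Ifnar1 lost, because Ifnb1 is tested there. The cause of each difference was not tested, except that the limit of 2 on the log2 difference removes smaller differences by construction. With that limit the counts were 0 in ER-Hoxb8 MLCs against microglia (2 without it), sgRNA 1 against NTC macrophages (2), NTC macrophages against progenitors (3), the interaction (2) and Adar1 KO against NTC macrophages at 0 (1), 0.0006 (1), 0.016 (2), 0.4 (1) and 10 µM (2). They were 1 in sgRNA 1 macrophages against progenitors (3) and 10 µM against 0 µM in KO cells (3), and 2 in sgRNA 2 macrophages (5).

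With library weights, 4 passed in BM monocytes (1), 1 in ER-Hoxb8 against BMD macrophages (0), 3 in ER-Hoxb8 MLCs against macrophages (1), 3 in BMD MLCs against microglia (1), 3 in KO against NTC at 0 µM (1), 2 at 0.0006 µM (1), 2 at 0.4 µM (1), 2 in 10 µM against 0 µM in NTC cells (0) and 4 in the interaction (2). With the compared groups alone, 3 passed in BM monocytes, 2 in ER-Hoxb8 MLCs against macrophages, 1 in sgRNA 1 against NTC macrophages, 2 in KO against NTC at 0 µM, 0 at 0.4 µM and 1 in NTC cells at 10 µM. With quantile normalization, 2 passed in ER-Hoxb8 MLCs against macrophages, 2 in KO against NTC at 0.4 µM, 1 in NTC cells at 10 µM and 1 in the interaction. Log2 of CPM plus 1 gave 2 in BM monocytes, no filter gave 1 in the interaction, and the WTHox libraries gave 1 in ER-Hoxb8 MLCs against microglia. The replicate block gave 4 in BMD MLCs against macrophages (3), 2 in ER-Hoxb8 MLCs against macrophages (1) and 1 in sgRNA 1 against NTC macrophages (2). The genes gained were Ifnar1 in BMD MLCs (1.06, adjusted p 0.0453) and Ifnar2 in ER-Hoxb8 MLCs (1.38, 0.0499), the gene lost was Ifnar1, and the block changed no other call among the 5 genes.

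With 1 library left out, the counts ran from 1 to 2 in BM monocytes, ER-Hoxb8 MLCs against macrophages, sgRNA 1 against NTC macrophages and KO against NTC at 0, 0.0006 and 0.4 µM. They ran from 1 to 3 at 0.016 µM and in the interaction, and from 0 to 2 in 10 µM against 0 µM in NTC cells. Of the differences of these 5 genes that passed, 1 reversed, Ifngr1 in sgRNA 1 macrophages against progenitors, at -0.0574 after quantile normalization (adjusted p 0.59 in limma).

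Numbers of all genes called moved by over 1.5 times in several comparisons. They were 1661 in BM monocytes (709 to 5258 over the alternatives), 245 in ER-Hoxb8 against BMD macrophages (107 to 2295), 3835 in BMD MLCs against macrophages (2479 to 7921), 2562 in BMD MLCs against microglia (2195 to 5185), 103 in sgRNA 1 progenitors (41 to 110), 2401 in sgRNA 1 against NTC macrophages (1324 to 3334), 2816 in KO against NTC at 0 µM (2079 to 4417), 1500 at 0.4 µM (226 to 2782) and 1542 in NTC cells at 10 µM (661 to 3583). Quantile normalization moved the split of sgRNA 1 against NTC macrophages from 1599 higher and 802 lower to 1324 and 1311, with the median of all genes from 0.05 to -0.06, and that of KO against NTC at 0.4 µM from 856 and 644 to 708 and 834. Depth limits what a count of 0 excludes for Ifnb1, since 3 reads stand for 0.487 CPM in the shallowest library of the baricitinib series.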
